A study of Caenorhabditis elegans with 8 samples.

Results

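The insulin/IGF signalling pathway from receptor to FOXO factor was followed through 10 genes of Caenorhabditis elegans: daf-2, ist-1, age-1, aap-1, pdk-1, akt-1, akt-2, sgk-1, daf-18 and daf-16. They were taken by gene name from the deposited table, which lists 46904 genes, and all 10 were found and passed the filter on low counts that left 10932 genes for testing. Transcripts were measured in pools of whole worms at day 6 of adulthood, in 4 libraries of worms fed cpr-6 RNAi bacteria and 4 libraries of worms fed control bacteria with an empty vector. cpr-6 encodes a cathepsin B-like cysteine protease. Worms of both groups were of strain CL2006, whose transgene expresses human amyloid beta (Aβ) in body wall muscle, with a genotype given as WT in the labels. Both were fed HT115 (DE3) bacteria at 20 °C and taken from the second generation on the same food, with progeny removed by daily transfer. There was no group without the transgene. The labels speak of 4 biological repeats without saying how cultures were kept apart, so p-values measure only the scatter among these 8 libraries.

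In this pathway insulin-like peptides bind the receptor DAF-2, which signals through the phosphoinositide 3-kinase AGE-1 and its adaptor AAP-1 to raise the membrane lipid PIP3. The lipid phosphatase DAF-18 removes that lipid again. PIP3 brings PDK-1 and the AKT kinases to the membrane. AKT-1 and AKT-2 phosphorylate the FOXO transcription factor DAF-16, which keeps it out of the nucleus. The pathway is best known in worms for its control of dauer arrest, stress resistance and lifespan. Its activity is set by phosphorylation and localisation, which transcript counts do not measure.

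Libraries held 8184412 to 12506320 counts, from CEL-Seq2, a method that reads the 3′ ends of polyadenylated transcripts. The knocked-down gene checked the labels: cpr-6 stood at 81.7 ± 14.7 CPM (counts after every library was brought to the same total) in cpr-6 RNAi libraries and at 758 ± 22.5 CPM in empty vector libraries (SD, n = 4 each), a log2 fold change of -3.22 ± 0.114 (SE; edgeR adjusted p = 2.00e-10). cpr-6 RNAi replicate 4 stood apart from the other libraries, at 40.7 on the first principal component against -19.7 to 5.16, with 2.14% of its counts from the mitochondrial genome against 0.805% to 1.16%. Marker lists of 8 tissues or stages (body wall muscle, intestine, neurons, hypodermis, germline, oocytes, sperm and early embryo) were all detected, with 0 markers at 0 counts in all libraries. Sperm and early embryo markers were scarce, summing to 2.98 to 9.51 CPM and 4.73 to 13.6 CPM per library. Of these, 4 of 5 sperm markers and 1 of 5 early embryo markers passed the filter on low counts. In pools of whole worms, fewer cells of a type and less RNA per cell cannot be told apart.

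The members lie on 6 chromosomes of the build WBcel235, and positions are those of the deposited table. daf-2 (WBGene00000898) spans chromosome III, 2995487 to 3040860 on the minus strand, and ist-1 (WBGene00002163) spans chromosome X, 7126648 to 7139646 on the plus strand. age-1 (WBGene00000090) lies on chromosome II, 11519323 to 11527062, minus strand. Its adaptor gene aap-1 (WBGene00000001) lies on chromosome I, 5107833 to 5110183, plus strand. daf-18 (WBGene00000913) lies on chromosome IV, 419938 to 425181, minus strand. The kinase genes are pdk-1 (WBGene00003965; chromosome X, 1321353 to 1327985, plus strand), akt-1 (WBGene00000102; chromosome V, 10248907 to 10252895, plus strand), akt-2 (WBGene00000103; chromosome X, 14147700 to 14152070, plus strand) and sgk-1 (WBGene00004789; chromosome X, 16254843 to 16262151, minus strand). daf-16 (WBGene00000912) lies on chromosome I, 10750343 to 10776700, plus strand.

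Because counts come from transcript 3′ ends, the gene model at that end sets what can be counted. For daf-2, the annotation of Ensembl release 115 ends 973 bases further in the 3′ direction than the deposited table, at 2994514, and gives the gene a 3′ UTR of up to 1405 bases. For the other 9 members the same difference ran from -73 bases (daf-18, where the deposited end lies further out) to 20 bases (ist-1). The annotation release used in counting is not given in the sources used here, and whether reads from the daf-2 stretch were counted was not tested. The same annotation gives daf-16 11 transcripts with 7 starts and 5 ends, and daf-2 7 transcripts with 3 ends, so the values below pool isoforms. Use of strand in counting is not given either. Exons of aap-1 share 136 bases with Y110A7A.21 on the other strand (13 to 28 counts per library), and those of akt-1 share 8 bases with rop-1 (309 to 471 counts). Those of age-1 share 192 bases with B0334.10, which had 0 counts. Exons of daf-16 share 84 bases with H36N01.5 and those of pdk-1 share 15 bases with F21E9.2, each with 0 to 2 counts per library.

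Transcript levels differed widely between the steps of the pathway, with the lipid phosphatase gene daf-18 highest and the receptor gene daf-2 lowest. Per kilobase of annotated exon, daf-18 averaged 263 CPM per kilobase over the 8 libraries, akt-1 199, aap-1 67.1, daf-16 29.5, age-1 7.90, pdk-1 4.66, sgk-1 2.17, akt-2 1.90, ist-1 1.02 and daf-2 0.289 CPM per kilobase. On this scale the level of daf-18 was 912 times that of daf-2, and in CPM, with no division by length, it was 366 times. Reads beyond the deposited 3′ end of daf-2, if left uncounted, would lower its level on both scales, which was not tested. Per kilobase, 3 pairs of neighbours overlapped in their ranges over libraries: daf-18 with akt-1, age-1 with pdk-1, and sgk-1 with akt-2. In cpr-6 RNAi replicate 4, daf-18 and akt-1 were both at their lowest, 187 and 168 CPM per kilobase. The same library held the lowest values of age-1 and pdk-1, 5.05 and 4.09 CPM per kilobase. Without division by length, which 3′ end counting does not call for, the order of mean CPM was daf-18 (878), akt-1 (452), aap-1 (121), daf-16 (109), age-1 (31.0), pdk-1 (11.3), akt-2 (4.53), ist-1 (4.06), sgk-1 (3.55) and daf-2 (2.40). In CPM the ranges of aap-1 and daf-16 overlapped, as did those of neighbouring genes among akt-2, ist-1, sgk-1 and daf-2, and those of the other neighbours did not. 7 of 10 members held the same rank on both scales, and the 3 that did not were akt-2, ist-1 and sgk-1. Among all tested genes the mean CPM of daf-18 stood at percentile 98.3 and that of daf-2 at percentile 16.5.

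**Figure D1:**
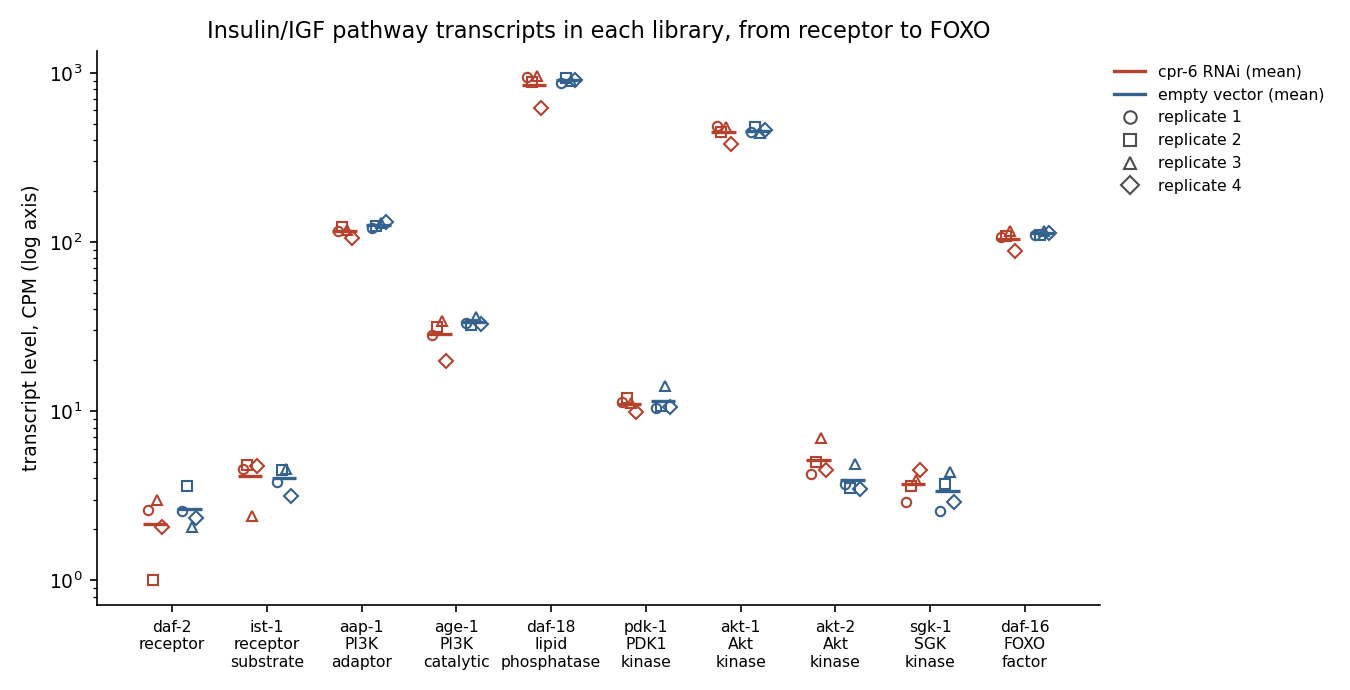
Transcript level (CPM, log axis) of each pathway gene in all 8 libraries, ordered from receptor to FOXO factor, with cpr-6 RNAi (red) left of empty vector (blue). Symbols mark replicate numbers and horizontal bars group means. Levels ran from 1.00 CPM (daf-2 in cpr-6 RNAi replicate 2) to 959 CPM (daf-18 in cpr-6 RNAi replicate 3), and the groups overlapped for every gene.

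At the receptor, counts were too few for a precise level. daf-2, the insulin/IGF receptor gene, stood at 2.60, 1.00, 2.97 and 2.06 CPM in cpr-6 RNAi replicates 1 to 4, against 2.56, 3.59, 2.06 and 2.34 CPM in empty vector replicates 1 to 4. These levels rest on 10 to 35 counts per library. The lowest, in cpr-6 RNAi replicate 2, came from 10 counts, and its exact 95% Poisson interval was 0.480 to 1.84 CPM. The highest, in empty vector replicate 2, came from 35 counts, and its interval began at 2.50 CPM. These intervals do not meet, while those of the other 6 libraries overlap one another. The intervals cover counting error only, and amplified copies would make them too narrow.

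ist-1 encodes the worm relative of the insulin receptor substrates, adaptor proteins that link the receptor to phosphoinositide 3-kinase. It stood at 4.53, 4.81, 2.41 and 4.71 CPM in cpr-6 RNAi replicates 1 to 4, against 3.84, 4.52, 4.54 and 3.14 CPM in empty vector replicates 1 to 4. Apart from cpr-6 RNAi replicate 3, at 26 counts, its libraries lay between 3.14 and 4.81 CPM, and the groups overlapped.

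At the lipid kinase step the adaptor was measured more precisely than the catalytic subunit. aap-1 stood at 117, 123, 118 and 105 CPM in cpr-6 RNAi replicates 1 to 4, against 121, 125, 130 and 131 CPM in empty vector replicates 1 to 4. Of the 4 cpr-6 RNAi libraries, 3 lay below the lowest empty vector library, and replicate 2 lay within the empty vector range. age-1, the catalytic subunit gene whose mutants gave the pathway its first known long-lived worms, stood at 28.3, 31.5, 34.1 and 19.8 CPM in cpr-6 RNAi replicates 1 to 4, against 33.2, 32.3, 36.0 and 32.9 CPM in empty vector replicates 1 to 4. cpr-6 RNAi replicate 4 was the lowest library by a wide margin, at 63.3% of the mean of the other 3 cpr-6 RNAi libraries. The ratio of aap-1 to age-1 in CPM, with no scaling by length, was 4.19 ± 0.788 in cpr-6 RNAi libraries and 3.77 ± 0.181 in empty vector libraries (SD, n = 4 each).

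daf-18, the phosphatase that opposes the lipid kinase, took 54.3% of the summed CPM of the 10 genes. It stood at 949, 882, 959 and 622 CPM in cpr-6 RNAi replicates 1 to 4, against 867, 937, 900 and 905 CPM in empty vector replicates 1 to 4. The 3 other cpr-6 RNAi libraries lay at 882 CPM or more, and replicate 4 stood at 66.9% of their mean. Without it the cpr-6 RNAi mean was 930 ± 41.7 CPM (SD, n = 3), against 902 ± 28.8 CPM in empty vector libraries (SD, n = 4).

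Among the kinases, akt-1 stood highest both in CPM and per kilobase. Its level was 486, 450, 476 and 382 CPM in cpr-6 RNAi replicates 1 to 4, against 445, 476, 444 and 460 CPM in empty vector replicates 1 to 4. Again replicate 4 of cpr-6 RNAi was lowest, and the other 7 libraries lay between 444 and 486 CPM. pdk-1, the kinase that activates AKT, stood at 11.4, 11.9, 11.1 and 9.91 CPM in cpr-6 RNAi replicates 1 to 4, against 10.4, 10.8, 14.1 and 10.6 CPM in empty vector replicates 1 to 4. Its highest library was empty vector replicate 3, and the groups overlapped.

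akt-2 encodes the second AKT kinase of the worm. It stood at 4.24, 5.01, 6.96 and 4.47 CPM in cpr-6 RNAi replicates 1 to 4, against 3.73, 3.49, 4.89 and 3.46 CPM in empty vector replicates 1 to 4. 3 empty vector libraries lay below all cpr-6 RNAi libraries, and empty vector replicate 3 lay among them. sgk-1, a kinase related to AKT that is also activated through TORC2, stood at 2.89, 3.60, 3.90 and 4.47 CPM in cpr-6 RNAi replicates 1 to 4, against 2.56, 3.69, 4.37 and 2.90 CPM in empty vector replicates 1 to 4. Its groups overlapped over nearly their whole range. In every library akt-1 had at least 68.4 times the CPM of akt-2, both from 3′ end counts with no scaling by length. That ratio was 89.6 ± 19.1 in cpr-6 RNAi libraries and 120 ± 20.7 in empty vector libraries (SD, n = 4 each).

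daf-16, the FOXO factor at the end of the pathway, stood at 107, 108, 115 and 88.3 CPM in cpr-6 RNAi replicates 1 to 4, against 110, 111, 116 and 113 CPM in empty vector replicates 1 to 4. The 4 empty vector libraries lay within a coefficient of variation of 2.40%, below the 2.97% that counting alone gives at this level. cpr-6 RNAi replicate 4 was lowest, at 80.0% of the mean of the other 3. Over the 8 libraries the 3 genes whose deviations from their own mean were most like those of daf-16 were M151.7, Y73E7A.6 and unc-69, with root mean square differences of 0.023, 0.031 and 0.034 on the log2 scale. The median over the 7819 genes compared was 0.17, and the libraries shared by all points include the one that stood apart. Among the other members with a mean count of at least 50, aap-1 and akt-1 were closest to daf-16, at 0.062 and 0.071. They ranked 139 and 280 of the 7819 genes. daf-2, ist-1, akt-2 and sgk-1 fell below that count and were not compared.

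cpr-6 RNAi replicate 4 gave the lowest value for 6 of the 10 members: age-1, aap-1, pdk-1, akt-1, daf-18 and daf-16. Over all tested genes, 28.8% were lowest in that library and 29.9% were highest. On the log2 scale, the difference of replicate 4 from the mean of the other 3 cpr-6 RNAi libraries ran from -0.65 (age-1) to -0.18 (aap-1) for these 6 genes. For akt-2 it was -0.23, and for the scarce genes ist-1, sgk-1 and daf-2 it was 0.31, 0.36 and 0.036. All 5 germline markers and all 5 oocyte markers were also lowest in that library, and 0 of the 10 were at 0 counts in all libraries. Summed germline markers ran from 910 to 1409 CPM in cpr-6 RNAi libraries, with 910 CPM in replicate 4, and from 1237 to 1305 CPM in empty vector libraries. Summed oocyte markers ran from 4174 to 6799 CPM in cpr-6 RNAi libraries, with 4174 CPM in replicate 4, and from 5611 to 6110 CPM in empty vector libraries. Summed markers of hypodermis, body wall muscle and neurons were higher there than in any other library, at 1076, 5874 and 1290 CPM. The part of tissue markers or of the mitochondrial share in the members' low values was not tested.

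**Figure D2:**
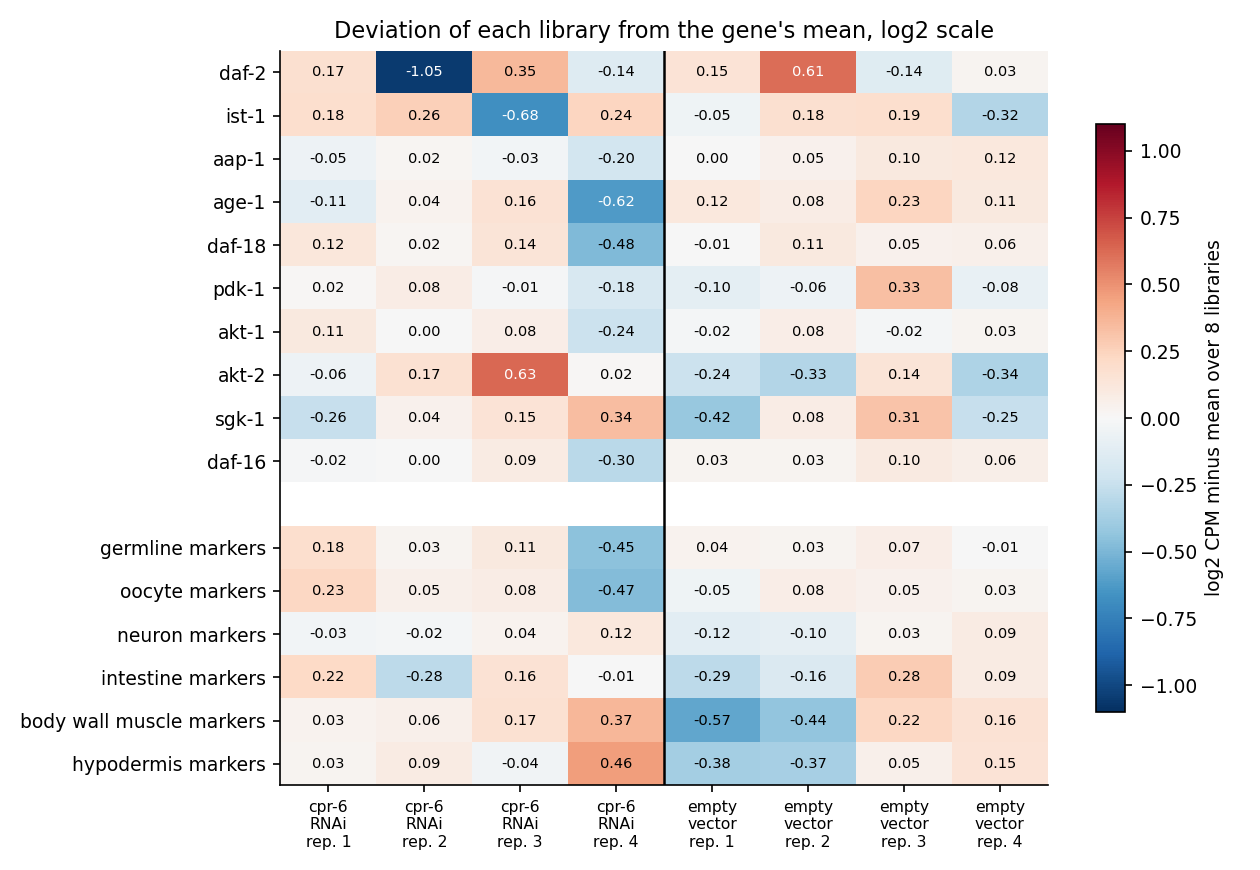
Deviation of each library from the mean over 8 libraries (log2 CPM, colour and printed value) for the 10 pathway genes and, below the gap, for summed tissue markers, with cpr-6 RNAi left of empty vector. In cpr-6 RNAi replicate 4, 6 genes were lowest (age-1 at -0.62, daf-18 at -0.48), as were germline (-0.45) and oocyte markers (-0.47). The largest deviation of any member was that of daf-2 in cpr-6 RNAi replicate 2 (-1.05), which rests on 10 counts.

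The comparison of cpr-6 RNAi with empty vector asked whether transcripts of the pathway differed where the cpr-6 transcript was lowered. The protease itself was not measured. No member passed edgeR's quasi-likelihood test: 0 of 10 had an adjusted p under 0.05, and 0 of 10 an unadjusted p under 0.05. Of all tested genes 0.00915% were called, which is cpr-6 alone, and 3.85% had an unadjusted p under 0.05. DESeq2 also called 0 of 10, beside 0.0457% of all tested genes, and limma voom 0 of 10. The groups did not overlap for 0 of 10 members, against 2.52% of all tested genes. 7 members lay below 0 and 3 above, with a median log2 fold change of -0.067 (-0.022 without cpr-6 RNAi replicate 4), against 49.8% of tested genes below 0 and a median of 0.00058 over all of them.

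Among the members with the most counts, log2 fold changes were small and their 95% intervals narrow. akt-1 averaged 449 ± 46.7 CPM in cpr-6 RNAi libraries and 456 ± 15.1 CPM in empty vector libraries (SD, n = 4 each), a log2 fold change of -0.024 ± 0.0839 (SE; edgeR adjusted p = 0.997) with an interval of -0.20 to 0.15 from limma voom. daf-16 averaged 105 ± 11.6 CPM in cpr-6 RNAi libraries and 113 ± 2.70 CPM in empty vector libraries (SD, n = 4 each), a log2 fold change of -0.10 ± 0.093 (SE). Its interval ran to 0.09 at the upper end, which corresponds to 1.07-fold, and to -0.31 at the lower end, or 0.808-fold. For daf-18 the log2 fold change was -0.081 ± 0.113 (SE; interval -0.34 to 0.15), and for aap-1 it was -0.13 ± 0.0833 (SE; interval -0.31 to 0.04). Without cpr-6 RNAi replicate 4 these 4 genes had edgeR log2 fold changes of 0.042 (akt-1), -0.033 (daf-16), 0.041 (daf-18) and -0.093 (aap-1), so that akt-1 and daf-18 changed sign.

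Among the members above 10 CPM, age-1 had the lowest log2 fold change. It averaged 28.5 ± 6.22 CPM in cpr-6 RNAi libraries and 33.6 ± 1.63 CPM in empty vector libraries (SD, n = 4 each). The log2 fold change was -0.24 ± 0.141 (SE; edgeR adjusted p = 0.997; interval -0.56 to 0.05), and -0.11 without cpr-6 RNAi replicate 4. pdk-1 had -0.054 ± 0.148 (SE; interval -0.36 to 0.27), which became 0.063 without empty vector replicate 3.

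akt-2 had the largest difference of the 10 and the smallest unadjusted edgeR p, 0.0856. It averaged 5.17 ± 1.23 CPM in cpr-6 RNAi libraries and 3.89 ± 0.673 CPM in empty vector libraries (SD, n = 4 each), a log2 fold change of 0.41 ± 0.223 (SE; edgeR adjusted p = 0.997; interval -0.07 to 0.87). Without cpr-6 RNAi replicate 3 it was 0.23. The receptor gene daf-2 had -0.27 ± 0.322 (SE), and its interval of -1.03 to 0.38 reached 0.489-fold at the lower end. With 1 library left out the value ran from -0.47 without cpr-6 RNAi replicate 3 to -0.034 without cpr-6 RNAi replicate 2, the library with 10 counts, and it was -0.092 without empty vector replicate 2. sgk-1 had 0.13 ± 0.242 (SE; interval -0.37 to 0.63) and ran from 0.020 without empty vector replicate 1 to 0.28 without empty vector replicate 3. ist-1 had 0.033 ± 0.248 (SE; interval -0.55 to 0.54), and ran from -0.077 without empty vector replicate 4 to 0.23 without cpr-6 RNAi replicate 3.

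**Figure D3:**
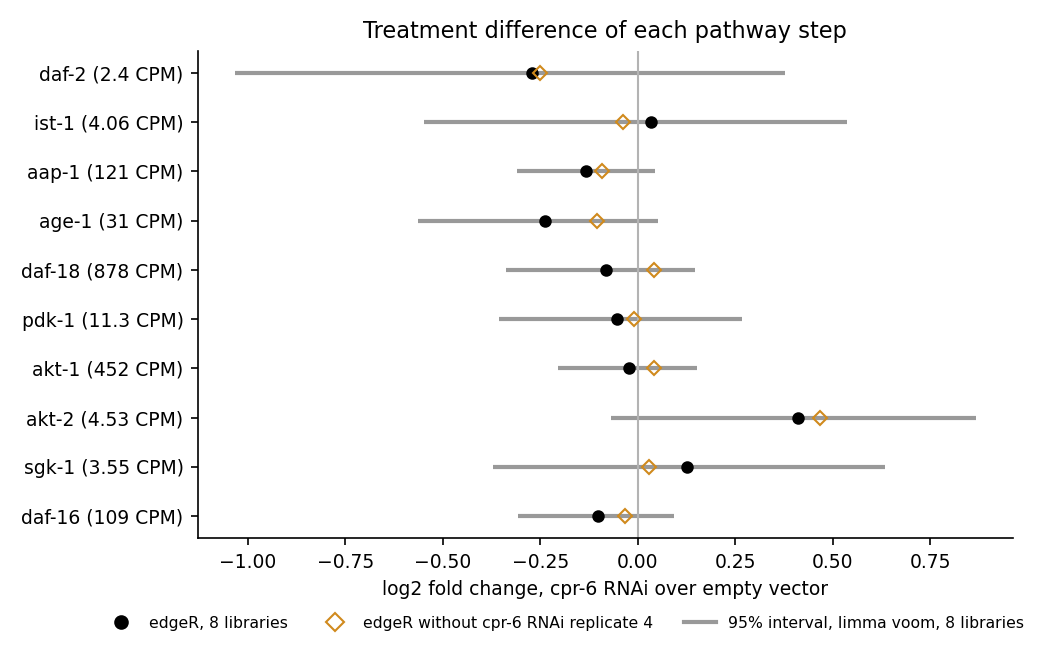
Log2 fold change of each pathway gene, cpr-6 RNAi over empty vector, from edgeR with all 8 libraries (black) and without cpr-6 RNAi replicate 4 (orange), with the 95% interval of limma voom over 8 libraries (grey). Mean CPM stands beside each name. All 10 intervals include 0, and the widest is that of daf-2 (-1.03 to 0.38).

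The width of the 95% interval differed from step to step. These intervals hold for 1 gene at a time, so a difference past its margin need not pass the test adjusted over all genes. The margin of the 95% interval to either side was 0.18 on the log2 scale (1.13-fold) for aap-1 and akt-1, 0.20 (1.15-fold) for daf-16 and 0.24 (1.18-fold) for daf-18. It was 0.31 for age-1 and pdk-1 (1.24-fold each), 0.47 for akt-2 (1.38-fold), 0.50 for sgk-1 (1.42-fold), 0.54 for ist-1 (1.46-fold) and 0.70 for daf-2 (1.63-fold). The median over all tested genes was 0.33. aap-1 was among the most precisely measured genes, at percentile 4.77 of all margins, while daf-2 stood at percentile 87.9.

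Margins did not follow level alone. daf-18 had the most counts of the 10 (5146 to 11231 per library), yet its margin was wider than those of akt-1, aap-1 and daf-16. Among the 182 tested genes within 1.5-fold of its mean CPM, 87.4% had a margin no wider than that of daf-18, whereas 6.64% of the 1160 genes around aap-1 had one as narrow as that of aap-1. Counting alone gives daf-18 a coefficient of variation of 1.05%. The measured coefficients were 18.5% in cpr-6 RNAi libraries and 3.19% in empty vector libraries, and 4.48% in cpr-6 RNAi libraries without replicate 4. For age-1 they were 21.9% and 4.84%, against 5.55% from counting, and 9.31% in cpr-6 RNAi libraries without replicate 4. For daf-2 counting alone gives 20.1%, and the measured values were 39.7% in cpr-6 RNAi libraries and 25.4% in empty vector libraries. The biological coefficient of variation from edgeR ran from 9.19% (aap-1) to 25.1% (daf-2), with a median of 13.5% over members and 14.2% over all tested genes.

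**Figure D4:**
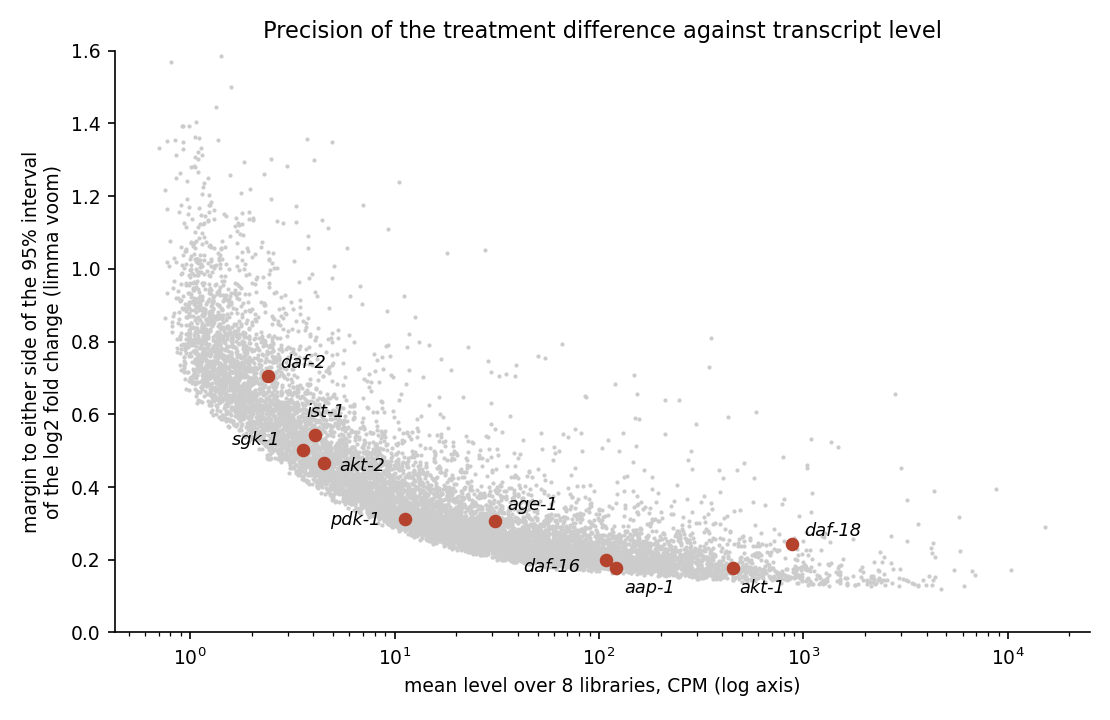
Margin of the 95% interval of the log2 fold change (limma voom) against mean CPM (log axis) for all tested genes (grey points) and the 10 pathway genes (red). 8 genes lie above the axis limit of 1.6. The members follow the fall of the margin with level from daf-2 (0.70) to akt-1 (0.18). daf-18 (0.24) lies above most genes of its level, as do age-1 (0.31), daf-2 and ist-1 (0.54).

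Of 6 ratios between members, 4 had a lower coefficient of variation over the 8 libraries than either of their genes: daf-18 over akt-1, age-1 and daf-16, and akt-1 over daf-16. These coefficients include cpr-6 RNAi replicate 4, in which daf-18, akt-1, age-1 and daf-16 were all lowest. A fall shared in that library narrows the ratios relative to their genes, so the count of 4 does not show joint variation elsewhere. daf-18 over akt-1, in CPM with no scaling by length, was 1.95, 1.96, 2.02 and 1.63 in cpr-6 RNAi replicates 1 to 4, against 1.95, 1.97, 2.03 and 1.97 in empty vector replicates 1 to 4. Its 7 values outside cpr-6 RNAi replicate 4 thus lay between 1.95 and 2.03. akt-1 over daf-16 had a coefficient of variation of 5.26% over the 8 libraries, against 7.17% for akt-1 and 8.16% for daf-16 alone, and averaged 4.29 ± 0.191 in cpr-6 RNAi libraries and 4.05 ± 0.197 in empty vector libraries (SD, n = 4 each). daf-18 over age-1, the phosphatase over the kinase it opposes, averaged 30.2 ± 2.69 in cpr-6 RNAi libraries and 26.9 ± 1.73 in empty vector libraries (SD, n = 4 each), with cpr-6 RNAi replicates 1 and 4 above all empty vector libraries and replicates 2 and 3 within their range.

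The authors' deposited log2 fold changes were matched within 0.001 for 13217 of 13217 genes by a DESeq2 model of the deposited counts with a term that separates replicates 1 and 2 from replicates 3 and 4, and for 2506 genes by a model of treatment alone. Headers of the deposited normalized counts carry the term noBatch, but no label says what a batch was or explains this division. The members were also compared within replicates 1 and 2 and within replicates 3 and 4. In empty vector libraries, summed body wall muscle markers stood at 3053 and 3359 CPM in replicates 1 and 2 and at 5311 and 5072 CPM in replicates 3 and 4. In cpr-6 RNAi libraries the same markers stood at 4658 and 4738 CPM in replicates 1 and 2 and at 5104 and 5874 CPM in replicates 3 and 4, and their part in the members' values was not tested. The difference of mean log2 CPM was -0.82 for daf-2 within replicates 1 and 2 and 0.16 within replicates 3 and 4. For age-1 the values were -0.13 and -0.40, for daf-18 0.021 and -0.22, for akt-1 0.024 and -0.083 and for daf-16 -0.038 and -0.18. For akt-2 they were 0.34 and 0.42. In edgeR the difference between the 2 pairs was 0.11 ± 0.451 for akt-2 and -0.099 ± 0.171 for akt-1 (SE). The remaining values were -0.040 and -0.23 for aap-1, 0.13 and -0.22 for pdk-1, 0.16 and -0.15 for ist-1, and 0.065 and 0.22 for sgk-1. In a test of whether the treatment difference itself differed between these pairs of replicates, 0 of 10 members were called by edgeR (0 at unadjusted p under 0.05, smallest unadjusted p 0.141, for daf-2), beside 0% of all tested genes called and 3.82% at unadjusted p under 0.05. The authors' deposited table gives the members log2 fold changes from -0.29 (daf-2) to 0.40 (akt-2), with an adjusted p of 1.00 for each and 0 of 10 unadjusted p under 0.05. That table calls 0.053% of its 13217 tested genes, and 3.35% of them have an unadjusted p under 0.05.

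Further genes of the pathway were read from 4 lists, each to be set beside the 0.00915% of all tested genes that were called, the 3.85% with an unadjusted p under 0.05 and the 49.8% below 0. Among kinase and phosphatase modulators, 10 of 14 genes could be tested, and 0 were called higher and 0 lower (edgeR; 0 at unadjusted p under 0.05), with 8 of 10 below 0 and a median log2 fold change of -0.085 (-0.049 without empty vector replicate 1). The 3 with the smallest p were daf-15, the worm Raptor of TORC1, at -0.16 ± 0.0942, pptr-1, a PP2A subunit that acts on AKT-1, at -0.16 ± 0.0951, and rict-1, the worm Rictor of TORC2, at -0.16 ± 0.125 (SE). Leaving out empty vector replicate 2 gave rict-1 a value of -0.052, and leaving out cpr-6 RNAi replicate 4 gave -0.068. The 14-3-3 genes par-5 and ftt-2, whose proteins bind phosphorylated DAF-16, were the most abundant of the list. par-5 averaged 1003 ± 57.0 CPM in cpr-6 RNAi libraries and 1048 ± 116 CPM in empty vector libraries, and ftt-2 1084 ± 86.9 CPM in cpr-6 RNAi libraries and 1060 ± 85.2 CPM in empty vector libraries (SD, n = 4 each). Both are given because of their level. The 4 genes not tested were eak-3, eak-4, hsd-1 and sdf-9, known for expression in a few endocrine cells of the head, with 0 to 2 counts per library.

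DAF-16 cofactors and regulators could be tested for 26 of 27 genes, of which 0 were called in either direction (edgeR; 0 higher and 1 lower at unadjusted p under 0.05), with 13 below 0 and a median of 0.0087. That 1 gene of 26 is the share found over all tested genes. It was rle-1, which encodes a ubiquitin ligase for DAF-16, at 4.03 ± 1.03 CPM in cpr-6 RNAi libraries and 5.79 ± 1.45 CPM in empty vector libraries (SD, n = 4 each; log2 fold change -0.52 ± 0.241 SE; edgeR adjusted p = 0.997). The nuclear cofactor gene din-1 had a log2 fold change of -0.23 ± 0.112 and the transcription elongation gene tcer-1 one of -0.24 ± 0.128 (SE), which was -0.15 without cpr-6 RNAi replicate 3.

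Targets of DAF-16 were mixed. Of the 22 induced targets 16 could be tested, and 0 were called (edgeR; 2 higher and 1 lower at unadjusted p under 0.05), with 12 above 0 and a median of 0.071, which was -0.02 without cpr-6 RNAi replicate 4 and 0.16 without cpr-6 RNAi replicate 2. The aquaporin gene aqp-1 stood at 7.22, 11.4, 11.8 and 11.4 CPM in cpr-6 RNAi replicates 1 to 4, against 12.3, 12.4, 15.7 and 20.6 CPM in empty vector replicates 1 to 4. All its cpr-6 RNAi libraries lay below all its empty vector libraries, as in 2.52% of tested genes in either direction, and its log2 fold change was -0.55 ± 0.196 (SE; edgeR adjusted p = 0.997). pck-1, the gene of the gluconeogenic enzyme phosphoenolpyruvate carboxykinase, had 0.32 ± 0.119, and 0.21 without cpr-6 RNAi replicate 4. gpd-2, a glycolytic enzyme gene whose reads may be shared with its close copy gpd-3, had 0.28 ± 0.125, and 0.16 without that library. The 6 untested induced targets, hsp-16.1 and hsp-12.6 among them, had 0 to 7 counts per library. The classical reporter target sod-3, a mitochondrial superoxide dismutase gene, averaged 1.22 ± 0.642 CPM in cpr-6 RNAi libraries and 1.06 ± 0.489 CPM in empty vector libraries (SD, n = 4 each), with an interval of -0.71 to 1.14 for its log2 fold change. It lies outside the rule for named genes and was picked with its value known.

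Of the 9 repressed targets 7 could be tested, and 0 were called (edgeR; 0 at unadjusted p under 0.05), with 5 above 0 and a median of 0.093, which ran from 0.029 without empty vector replicate 2 to 0.20 without cpr-6 RNAi replicate 2 and was -0.029 within replicates 1 and 2 alone. The insulin-like peptide gene ins-7 had a log2 fold change of 0.27 ± 0.262, and dod-17 and dod-19 had -0.25 ± 0.251 and 0.13 ± 0.131 (SE). Without cpr-6 RNAi replicate 4 these values were 0.027 for ins-7, -0.44 for dod-17 and 0.035 for dod-19. ins-7 had 0.45 without cpr-6 RNAi replicate 1, and dod-19 had 0.24 without cpr-6 RNAi replicate 2. Within replicates 1 and 2 alone, edgeR called 1 gene of the 4 lists, the metallothionein gene mtl-1, at a log2 fold change of -0.55 (adjusted p = 0.0193), in a fit that called 1.11% of all tested genes. With all libraries mtl-1 had -0.19 ± 0.199 (SE; edgeR adjusted p = 0.997).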

How the data were processed

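Raw counts per gene are the values the authors deposited. The submitters' processing notes name the build WBcel235 and, in no stated role, DESeq2 1.30.1, HTSeq 0.12.4, TopHat2 2.1.1 and cutadapt 2.10. Settings and the handling of strand and molecular identifiers are not known here, and copies made by amplification may be among the counts.

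In R 4.3.3, edgeR 4.0.16 fitted treatment alone to the genes that passed its filter (filterByExpr, minimum count 10), with TMM scaling, a robust quasi-likelihood test, two-sided, and Benjamini-Hochberg adjustment over 10932 genes at 0.05. limma 3.58.1 voom gave 95% intervals, and DESeq2 1.42.0 served as an alternative. CPM use TMM-scaled totals of the tested genes. Log2 CPM of single libraries carry a prior count of 2. The fits were also run on simulated counts with no library set apart and no division of replicates, so that run does not cover either feature. Exon lengths and 3′ ends come from Ensembl release 115. Chi-square per degree of freedom between libraries of a group was 5.98 to 29.7, above counting noise for every pair, so no libraries were merged. This does not show separate cultures. Members and lists were chosen with earlier results of these data known. Named are all members, the 3 genes of each list with the smallest p, and the 3 genes most like daf-16 (mean count at least 50). par-5, ftt-2, sod-3 and mtl-1 were picked after their values were seen. Alternatives were scaling, filters, tool, a replicate block, the division of replicates 1 and 2 from 3 and 4, and each library left out.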

Additional observations from a re-analysis of the deposited data

Results flagged for a closer look

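In groups of 4 libraries, a library is listed here where its gap to the nearest other exceeds Dixon's 95% critical share of the group's range. Chance gives about 1 such group in 20, and 4 of the 46 groups tested for the genes named had one. ist-1 in cpr-6 RNAi replicate 3 stood at 2.41 CPM, below the other 3 cpr-6 RNAi libraries at 4.53 to 4.81 CPM. pdk-1 in empty vector replicate 3 stood at 14.1 CPM, above the other 3 empty vector libraries at 10.4 to 10.8 CPM. aqp-1 in cpr-6 RNAi replicate 1 stood at 7.22 CPM, and daf-15 in empty vector replicate 1 at 65.8 CPM, each below the rest of its group.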

How the results depend on the processing

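No member was called under any of the 19 alternatives, and 177 of the 190 member values kept their sign. Values that changed sign were ist-1 with limma voom (-0.0069) and within replicates 3 and 4 alone (-0.13), daf-2 within replicates 3 and 4 alone (0.20), and pdk-1, akt-1 and daf-18 within replicates 1 and 2 alone (0.13, 0.021 and 0.018). The same held for dod-19 within replicates 1 and 2 alone (-0.17) and dod-17 within replicates 3 and 4 alone (0.055). With 1 library left out, log2 fold changes ran from -0.077 to 0.23 for ist-1, -0.064 to 0.042 for akt-1, -0.14 to 0.041 for daf-18 and -0.097 to 0.063 for pdk-1. The cause was not tested. Of the 4 further lists, 1 gene was called within replicates 1 and 2 alone and 0 in each other alternative. Genes called over the whole table numbered 1 in the main analysis, 28 with no low-count filter, 5 with DESeq2, 121 within replicates 1 and 2 alone, 2 with the replicate block, 2 without cpr-6 RNAi replicate 2 and 3 without cpr-6 RNAi replicate 4. In the order of levels 7 of 10 members kept their rank per kilobase, by construction through exon length, and 8 to 10 with 1 library left out. Replicate numbers did not pair the libraries by the data (correlation of same-numbered deviations -0.031 to 0.25, and 3 of 8 libraries closest to their own number). With the replicate block, the value for daf-2 was -0.30, for age-1 -0.26 and for akt-2 0.40, and no member was called. daf-2, ist-1, sgk-1 and akt-2 rest on 10 to 75 counts per library, at which counting alone gives a coefficient of variation of 14.6% to 20.1%.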
